A study of Homo sapiens with 15 samples.

Results

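The 10 mitotic kinases and cyclins described here are CDK1, the cyclins CCNA2, CCNB1 and CCNB2, the kinases AURKA, AURKB, PLK1 and NEK2, and the regulators CDC20 and CDC25C. They were chosen by gene symbol, with earlier results of these data known, so their shares beside those of all genes are a description. They make up 10 of the 11963 genes that the arrays measured with probe sets annotated to 1 symbol. Each gene was represented by its probe set with the highest mean over all arrays, out of 18 probe sets for the 10 genes. Transcript levels were measured in the human mammary epithelial line MCF-10A, an established line that is immortal but does not form tumours, on 15 Affymetrix arrays, all 48 hours after retroviral or adenoviral infection. The knockdown arm had 2 arrays each of shDBD, a short hairpin RNA (shRNA) against the DNA-binding domain that all p63 isoforms contain, of shTA, an shRNA against the p63 isoforms with the transactivating domain, and of an shRNA vector control. The overexpression arm had 3 arrays each of cells made to express ΔNp63α, of cells made to express TAp63γ, and of an overexpression vector control. ΔNp63α lacks the amino-terminal transactivating domain that TAp63γ carries. All groups thus consist of infected cells, with vector-infected cells as the controls, and the labels do not say which virus served which arm or whether the biological replicates were separate infections. The p-values therefore measure the spread between these samples.

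p63, which basal epithelial cells express, is related to p53 and binds DNA as a transcription factor. CDK1 is the kinase that starts mitosis once it binds a cyclin, and the phosphatase CDC25C switches the complex on by removing inhibitory phosphates. The Aurora kinases, PLK1 and NEK2 then act on centrosomes, spindle and chromosomes, and CDC20 activates the anaphase-promoting complex, the ubiquitin ligase that destroys the mitotic cyclins and ends mitosis. Transcripts of these genes accumulate from late S phase to mitosis, and in resting cells the DREAM complex holds many of them down through a short promoter element called CHR, often close to CCAAT boxes bound by the factor NF-Y.

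Promoter windows from RefSeq (build GRCh38.p14, 250 bases before to 50 bases after the annotated start) were found for 9 of the 10 genes. The first window listed for each gene was searched on both strands for the CHR element TTTGAA, the CCAAT box, and the E2F site in the spellings TTTCCCGC, TTTCGCGC, TTTGGCGC and TTTGCCGC. A CCAAT box stood in 8 of the 9 windows, against 35.7% of the windows of all 27305 genes in the table. The CHR spelling TTTGAA stood in 4 of 9, against 15.4%, and the E2F site in 1 of 9, that of CDK1, against 3.33%. The CDK1 window also held a CHR element, which began 161 bases before the start. Neither the variant CHR element TTCGAA (1.45% of all windows) nor the p53 family decamer element (6.54% of all windows) was found in any of the 9 windows. A match of letters is not a shown binding site, and CDK1, AURKB and CDC25C have further annotated starts that were not counted. Other spellings of the CHR element were not searched, so a window without TTTGAA or TTCGAA is not shown to lack one.

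Stretches of 100 bases before to 50 bases after the start are shown for 4 genes whose changes with TAp63γ below were not all alike. CCNB2 (chr15:59105046-59105195, plus strand) and PLK1 (chr16:23678789-23678938, plus strand) fell with shDBD and by less with TAp63γ. CDC20 (chr1:43358881-43359030, plus strand) fell with shDBD and did not pass the test with TAp63γ, and NEK2 (chr1:211675572-211675721, minus strand) had the largest fall of the 10 with TAp63γ. Capitals mark CCAAT boxes and CHR elements, and each sequence is written along the gene's own strand.
CCNB2: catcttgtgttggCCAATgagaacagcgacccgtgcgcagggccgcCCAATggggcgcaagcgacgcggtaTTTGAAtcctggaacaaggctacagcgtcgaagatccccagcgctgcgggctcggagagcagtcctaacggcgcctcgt
PLK1: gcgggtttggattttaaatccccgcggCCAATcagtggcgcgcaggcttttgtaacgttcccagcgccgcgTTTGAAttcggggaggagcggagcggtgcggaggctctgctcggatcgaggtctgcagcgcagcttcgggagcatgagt
CDC20: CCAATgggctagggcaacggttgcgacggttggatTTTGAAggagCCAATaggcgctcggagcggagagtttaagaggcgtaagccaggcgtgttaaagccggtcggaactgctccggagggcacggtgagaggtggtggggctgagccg
NEK2: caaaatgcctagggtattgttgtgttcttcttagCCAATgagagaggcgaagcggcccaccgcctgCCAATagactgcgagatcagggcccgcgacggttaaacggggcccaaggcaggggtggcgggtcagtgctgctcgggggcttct
In CCNB2 and in PLK1 the CHR element began 29 bases before the start. In CDC20 a CHR element began 65 bases before it, between CCAAT boxes that began 100 and 55 bases before it, and another CHR element lay further upstream, on the minus strand. The NEK2 window held 2 CCAAT boxes, which began 66 and 34 bases before the start, and no TTTGAA. Whether these motifs bear on the changes was not tested.

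**Figure D1:**
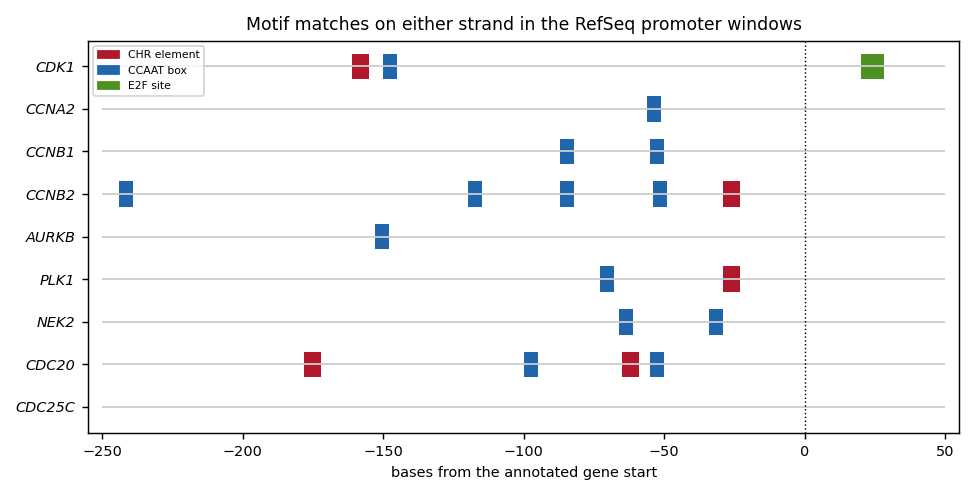
Positions of CHR elements (red), CCAAT boxes (blue) and the E2F site (green) in the promoter windows of 9 members, in bases from the annotated gene start (dotted line). CCAAT boxes stand in 8 of the 9 windows and CHR elements, shown here as TTTGAA only, in 4. The first listed CDC25C window holds none of the 3 motifs.

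The deposited values are log2 expression per probe set from the RMA procedure, so a difference of 1 is a 2-fold change. The arms differ in the distribution of their values, both at the 20th percentile and at the median, and were taken as normalized apart. Each treatment was therefore set against the vector of its own arm or against the other treatment of that arm. Group means of all 10 members were above the 20th percentile of the probe sets of their arm in all 6 groups. Basal markers (6 of 6) and general epithelial markers (4 of 4) also lay above that level in every group. Of markers of other cells, 1 of 4 immune, 2 of 5 fibroblast, 2 of 5 endothelial and adipocyte, and 1 of 2 luminal receptor genes lay below it in every group. Between shDBD and its vector, 1 of these other-cell markers passed the test, and between TAp63γ and its vector none of them did. Of the endothelial and adipocyte markers, 1 passed with ΔNp63α over its vector, 1 with shDBD over shTA and 2 with ΔNp63α over TAp63γ. In the last of these comparisons 1 immune marker also passed. ΔNp63α replicate 3 stood apart from its group over all probe sets, with correlations of 0.992 and 0.993 to the other replicates, which correlated with each other at 0.998. Other arrays of the overexpression arm also differed within their group. Its vector replicates 1 and 2 correlated at 0.994, and TAp63γ replicates 1 and 2 at 0.995. An array has no read depth, and the number of arrays limits the precision.

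**Figure D2:**
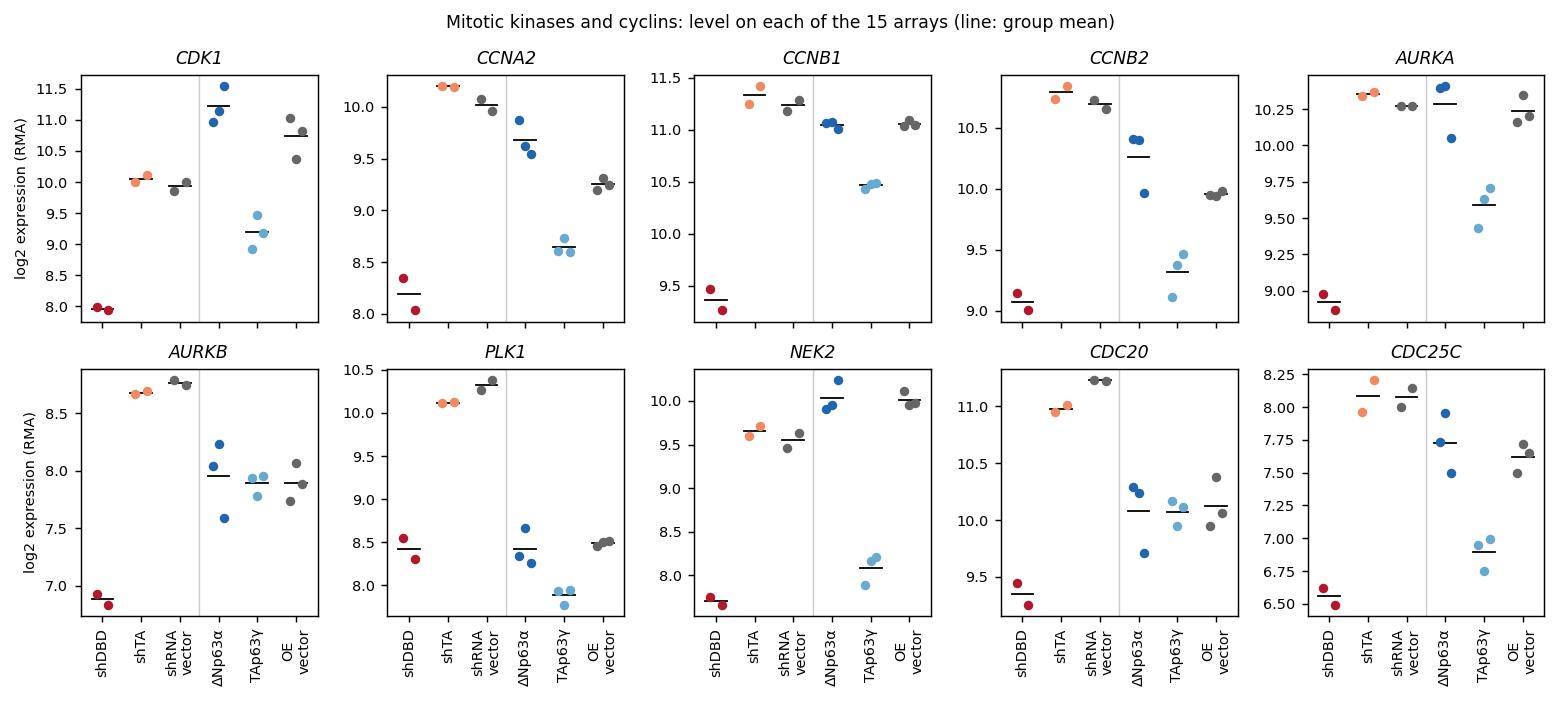
Level of each of the 10 genes (log2 expression, vertical axis) on each of the 15 arrays, by group, with the group mean as a line and the knockdown arm left of the grey divider. The shDBD arrays lie below all others of their arm in all 10 panels, and the TAp63γ arrays lie below the ΔNp63α and vector arrays in 8 panels, the exceptions being AURKB and CDC20.

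All 10 genes fell with shDBD, by 2.55-fold to 3.92-fold, with a median log2 change of −1.86 against 0.00043 over all genes. The comparison addresses which transcripts change with this hairpin against all p63 isoforms. Whether p63 fell, and whether the hairpin acted in other ways, was not tested here. Of all 11963 genes, 10.2% passed the test lower and 1.76% passed with a fall of at least 2-fold, whereas 10 of 10 members did both, and 11.1% of all genes passed higher. Changes are log2 fold changes ± SE from limma's moderated test, for n = 2 arrays a group after knockdown and n = 3 after overexpression, and the adjusted p is Benjamini-Hochberg over all genes, with a threshold of 0.05.

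CDK1 had levels of 7.99 and 7.93 on the shDBD arrays, against 9.86 and 10.01 on the vector arrays. Its fall (−1.97 ± 0.21, adjusted p = 5.23e-06) had the largest size of the 10 and also the largest SE. That SE is pooled over both arms, and with the arms fitted separately it was 0.082. Cyclin B1, the main mitotic partner of CDK1, had 9.47 and 9.26 with shDBD and 11.19 and 11.29 with the vector. The groups stood far apart for both genes, and CCNB1 had the smallest adjusted p of the 10 (−1.87 ± 0.089, adjusted p = 2.43e-09). Cyclin A2, which serves both S phase and mitotic entry, had 8.35 and 8.03 with shDBD against 10.07 and 9.96 with the vector (−1.83 ± 0.12). Cyclin B2 had 9.15 and 9.001 with shDBD against 10.73 and 10.66 with the vector (−1.62 ± 0.14, adjusted p = 6.32e-07). The 3 cyclins and their kinase thus lay lower on every shDBD array, with intervals of the change that overlapped (−2.42 to −1.52 for CDK1 and −1.92 to −1.32 for CCNB2, 95%).

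The kinases of centrosome, spindle and chromosome behaved alike in direction. PLK1, which acts from mitotic entry to cytokinesis, had 8.55 and 8.30 with shDBD, against 10.27 and 10.38 with the vector (−1.90 ± 0.12, adjusted p = 5.07e-08). AURKB, the kinase of the chromosomal passenger complex, had 6.93 and 6.84 with shDBD against 8.79 and 8.74 with the vector (−1.89 ± 0.16, adjusted p = 5.37e-07). NEK2, which splits the centrosomes, had 7.75 and 7.66 with shDBD and 9.46 and 9.63 with the vector (−1.84 ± 0.13). These 3 kinases fell by amounts within their SE of each other. AURKA, the centrosome kinase that activates PLK1, had the smallest change of the 10, with 8.97 and 8.86 on the shDBD arrays against 10.27 and 10.27 on the vector arrays (−1.35 ± 0.12, adjusted p = 1.15e-06).

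CDC20 had 9.45 and 9.26 with shDBD against 11.23 and 11.23 with the vector (−1.88 ± 0.17, adjusted p = 1.03e-06). CDC25C had 6.62 and 6.495 with shDBD against 8.003 and 8.15 with the vector (−1.52 ± 0.14, adjusted p = 1.24e-06). Both the activator of mitotic exit and the activator of mitotic entry were therefore lower on each shDBD array. No array of the shDBD group overlapped its vector for any of the 10 genes, as was also true, in the lower direction, of 29.9% of all genes. On shDBD replicate 2 all 10 genes were lower than on replicate 1, with a mean over the members of −1.85 against −1.69, each relative to the vector mean. The actin probe sets, whose 3′ minus 5′ difference reflects RNA integrity, gave differences of 0.0854 and 0.0483 with shDBD against −0.0938 and −0.0799 with the vector, and their part in these falls was not tested. The shTA arrays gave 0.00283 and 0.201. Of the 6 basal markers 4 fell and 0 rose with shDBD, and of the 4 general epithelial markers 0 fell and 1 rose. Their part in the falls was not tested. In bulk RNA a smaller share of cells in mitosis and less transcript per mitotic cell cannot be told apart.

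With shTA, the hairpin against the isoforms with the transactivating domain, none of the 10 genes passed limma's test, and 0 had an unadjusted p under 0.05. Over all genes 2.29% passed, 1.44% higher and 0.853% lower, so 0 calls in 10 genes is near that background. The number of all genes passing, 274, was unstable, at 87 to 472 leaving out 1 array and 1064 with the arms fitted separately, while the members' count stayed 0 in each. CDK1 had 9.995 and 10.11 with shTA against 9.86 and 10.01 with the vector, and these values overlapped. CCNA2 had 10.20 and 10.19 with shTA, against 10.07 and 9.96 with the vector (0.18 ± 0.12, adjusted p = 0.59). CDC20 had 10.95 and 11.01 with shTA against 11.23 and 11.23 with the vector (−0.25 ± 0.17, adjusted p = 0.603), the largest difference in size. The 95% intervals of the model were −0.32 to 0.57 for CDK1, −0.09 to 0.29 for CCNB1 and −0.61 to 0.11 for CDC20. Their widths rest on a spread pooled over the arrays of both arms, not on the shTA and vector arrays alone. The shTA arrays were all higher than the vector arrays for 3 genes, all lower for 3 (AURKB, PLK1 and CDC20) and overlapping for 4, where 24.2% of all genes were higher and 26.5% lower without overlap.

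Both hairpins were also set against each other. Relative to shTA, shDBD gave lower levels of all 10 genes, by 2.70-fold to 4.26-fold, whereas 9.23% of all genes passed lower. This comparison shares the shDBD arrays with the one against the vector. CDK1 differed by −2.09 ± 0.21 (adjusted p = 3.93e-06), CCNA2 by −2.01 ± 0.12 and CCNB1 by −1.97 ± 0.089 (adjusted p = 2.04e-09). AURKA again differed least (−1.44 ± 0.12). For AURKB, PLK1 and CDC20 the difference from shTA (−1.80, −1.69 and −1.63) was smaller in size than that from the vector (−1.89, −1.90 and −1.88), and for the other 7 genes it was larger. The gap between the 2 is the change with shTA over its vector, which did not pass for any of the 10.

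**Figure D3:**
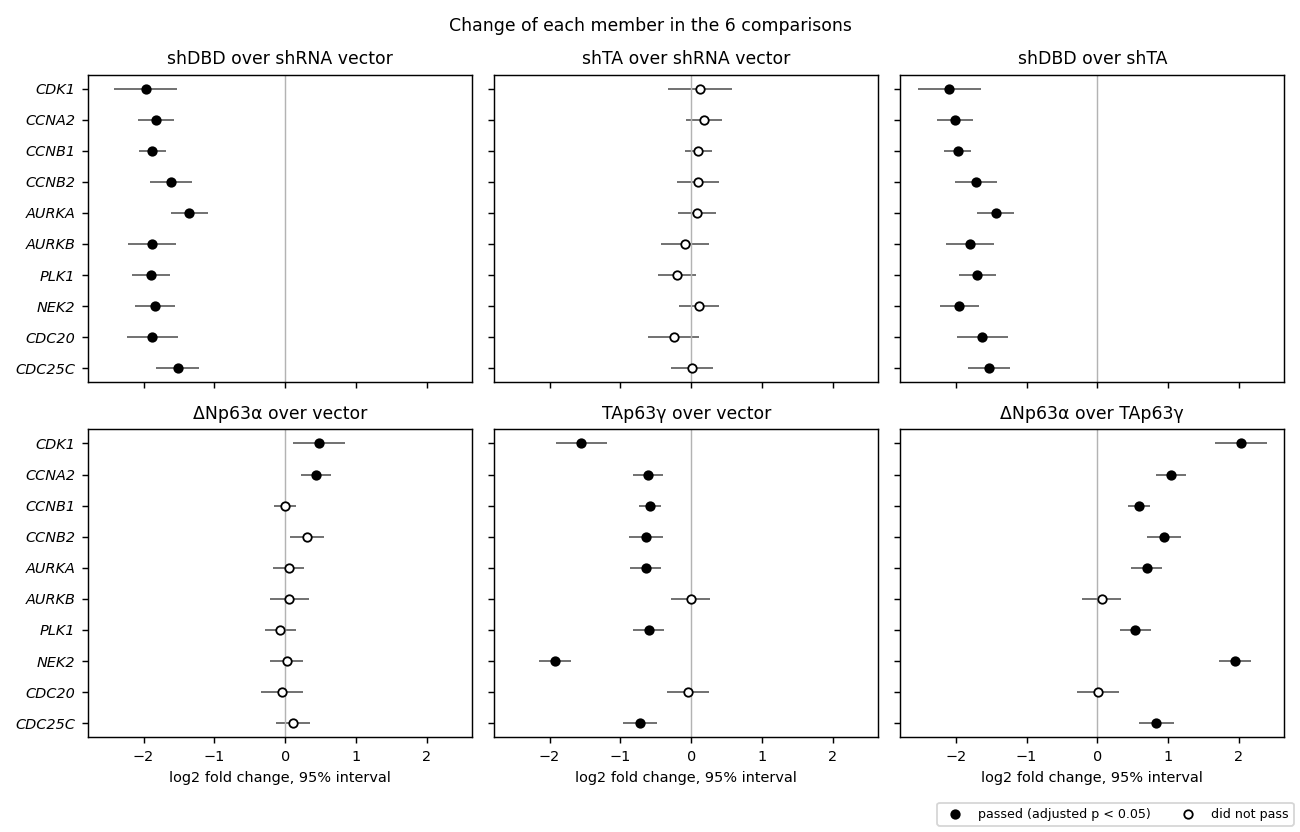
Log2 fold change of each member with its 95% interval (horizontal axis) in the 6 comparisons, with filled points where the test was passed. The shDBD panels show all 10 genes between −2.09 and −1.35, the shTA panel shows all intervals across 0, and the TAp63γ panel spreads from −1.93 for NEK2 to −0.007 for AURKB.

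With ΔNp63α the changes of 7 of the 10 members lay within 0.11 of 0 on the log2 scale. CCNA2 and CDK1 passed the test higher, 2 of 10 members, where 12.3% of all genes passed higher and 16.6% lower. These shares of all genes depend on scaling, since cyclic loess gave 1775 higher and 1572 lower against 1469 and 1985 here. CCNA2 had 9.88, 9.63 and 9.55 with ΔNp63α, against 9.19, 9.32 and 9.25 with the vector (0.43 ± 0.10, adjusted p = 0.0035), and was the only member whose arrays did not overlap, as was true in the higher direction of 16.3% of all genes. CDK1 had 10.96, 11.14 and 11.55 with ΔNp63α and 11.03, 10.38 and 10.81 with the vector. The groups overlapped, since ΔNp63α replicate 1 lay below vector replicate 1, and the difference was near the threshold (0.48 ± 0.17, adjusted p = 0.0474).

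The CDK1 call was lost in 15 of 25 alternative settings, with adjusted p up to 0.221. Among those leaving out 1 array, it was kept in 4 of 15, those without overexpression vector replicate 1, ΔNp63α replicate 1 or TAp63γ replicate 1 or 2. The CDK1 change with ΔNp63α was 0.29 without vector replicate 2 and 0.31 without ΔNp63α replicate 3. The other CDK1 probe sets rose with ΔNp63α by 0.57 ± 0.14 (adjusted p = 0.00595 over 22215 probe sets) and 0.60 ± 0.15 (adjusted p = 0.00729). In that same limma fit over all probe sets, the CDK1 probe set used did not pass (adjusted p = 0.0532). CCNB2 had 10.40, 10.40 and 9.96 with ΔNp63α against 9.95, 9.94 and 9.98 with the vector (0.30 ± 0.11, adjusted p = 0.059). It did not pass here, and it passed in 4 of 25 alternatives, among them without ΔNp63α replicate 3 (0.45, adjusted p = 0.00159).

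For the remaining 7 genes the change with ΔNp63α lay between −0.068 for PLK1 and 0.11 for CDC25C, with adjusted p from 0.551 to 0.962. CCNB1 was the most tightly bounded (−0.0074 ± 0.072, 95% interval −0.16 to 0.15). ΔNp63α replicate 3 gave the lowest value of its group for 8 of the 10 genes and the highest for the other 2, CDK1 and NEK2. Vector replicate 1 was likewise the lowest of its group for 7 genes and the highest for 2, CDK1 and NEK2. CDC20, for example, had 10.30, 10.24 and 9.71 on the 3 ΔNp63α arrays, against 9.95, 10.38 and 10.06 on the vector arrays. The spread within the ΔNp63α group was thus wider than the difference between the groups for this gene. Of the 6 basal markers 4 rose and 0 fell with ΔNp63α, and all 4 general epithelial markers fell, and their part in the values of the members was not tested.

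TAp63γ lowered 8 of the 10 genes, and its effect was uneven among them. Of all genes, 22.8% passed lower, 20.5% passed higher and 26.3% were lower without overlap. For the same 8 members no array overlapped the vector, while AURKB and CDC20 overlapped and did not pass. NEK2 had 7.89, 8.16 and 8.21 with TAp63γ, against 10.12, 9.95 and 9.98 with the vector, a 3.8-fold fall (−1.93 ± 0.11, adjusted p = 8.93e-10). CDK1 had 8.93, 9.46 and 9.18 with TAp63γ, against 11.03, 10.38 and 10.81 with the vector, a 2.93-fold fall (−1.55 ± 0.17, adjusted p = 1.90e-06). These were the 2 members with falls of at least 2-fold, a size that 4.1% of all genes passed in the lower direction. The actin 3′ minus 5′ differences were 0.00542, 0.136 and 0.0898 with TAp63γ against 0.235, 0.151 and 0.124 with the vector. Of the 6 basal markers 4 rose and 1 fell with TAp63γ, and of the 4 general epithelial markers 1 rose and 2 fell. The part of these in the falls was not tested.

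The other 6 genes that passed fell by 1.5-fold to 1.65-fold on the probe sets used. CDC25C had 6.95, 6.75 and 6.99 with TAp63γ against 7.495, 7.72 and 7.65 with the vector (−0.72 ± 0.11, adjusted p = 7.77e-05). CCNB1 had 10.43, 10.48 and 10.49 with TAp63γ against 11.03, 11.10 and 11.04 with the vector (−0.59 ± 0.072, adjusted p = 6.39e-06). Each TAp63γ array of these genes lay below each vector array, and the SE of CCNB1 was the smallest of the 10. Changes of CCNA2 (−0.61 ± 0.10), CCNB2 (−0.64 ± 0.11), AURKA (−0.65 ± 0.10) and PLK1 (−0.60 ± 0.10) had adjusted p from 6.86e-05 to 2.38e-04. Other probe sets gave other sizes, with −0.91 ± 0.091 for CCNA2 (adjusted p = 8.68e-07) and −0.37 ± 0.16 for AURKA, which did not pass (adjusted p = 0.0762), both adjusted over all probe sets in limma.

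AURKB had 7.93, 7.78 and 7.95 with TAp63γ against 7.74, 8.07 and 7.89 with the vector (−0.007 ± 0.13, adjusted p = 0.974, 95% interval −0.28 to 0.27). CDC20 had 10.17, 9.95 and 10.11 with TAp63γ, against 9.95, 10.38 and 10.06 with the vector (−0.052 ± 0.14, adjusted p = 0.804, 95% interval −0.35 to 0.24). For both genes the TAp63γ arrays lay within the range of the vector arrays. On the probe sets used, AURKA and AURKB, related kinases with different partners, therefore gave different results in the same samples. The other AURKA probe sets did not pass with TAp63γ, while the mean of all AURKA probe sets did. The test asked of each gene whether it changed, and the difference between genes was not tested.

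Set directly against TAp63γ, ΔNp63α gave higher levels of the same 8 genes, where 19.2% of all genes passed higher and 22.6% were higher without overlap. With low values floored, 3514 genes passed higher and 2503 lower, against 2297 and 2465 here, and 8 members still passed. The comparison shares its arrays with those above. CDK1 averaged 11.22 ± 0.30 with ΔNp63α and 9.19 ± 0.27 with TAp63γ (SD, n = 3 each), a 4.08-fold difference (2.03 ± 0.17, adjusted p = 2.05e-07). NEK2 averaged 10.03 ± 0.18 with ΔNp63α and 8.09 ± 0.17 with TAp63γ, a 3.85-fold difference (1.94 ± 0.11, adjusted p = 1.84e-09). CCNA2 followed (1.04 ± 0.10), then CCNB2 (0.94 ± 0.11) and CDC25C (0.83 ± 0.11). CDK1 and NEK2 thus differed most between the isoforms. With ΔNp63α over its vector CDK1 passed near the threshold, a call lost in 15 of 25 alternatives, and NEK2 did not pass (0.018 ± 0.11). Whether these 2 genes differ in that comparison was not tested. CDC20 did not pass (0.0059 ± 0.14, adjusted p = 0.98), nor did AURKB (0.063 ± 0.13, adjusted p = 0.741).

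Because shDBD lowered all 10 genes and TAp63γ lowered 8, the difference of the 2 effects was tested in the same limma model as a contrast added after the values were seen. It uses no common samples, but each effect is measured in its own arm. The vectors of the 2 arms also differed in level, in values taken as normalized apart. PLK1 averaged 10.33 with the shRNA vector and 8.49 with the overexpression vector, CDC20 11.23 and 10.13, and AURKB 8.77 and 7.90. CDK1 (9.93 and 10.74) and NEK2 (9.55 and 10.01) were higher with the overexpression vector, and the other 8 were lower. The part of these levels in the differences was not tested. The fall was larger with shDBD for 8 genes, where 16.0% of all genes passed in that direction. AURKB had a change of −1.89 ± 0.16 with shDBD and −0.007 ± 0.13 with TAp63γ, a difference of −1.88 ± 0.20 (adjusted p = 3.65e-06). CDC20 had −1.88 ± 0.17 with shDBD and −0.052 ± 0.14 with TAp63γ, a difference of −1.83 ± 0.22 (adjusted p = 9.34e-06). These 2 genes had the largest differences, and PLK1 (−1.30 ± 0.16), CCNB1 (−1.29 ± 0.11) and CCNA2 (−1.22 ± 0.16) came next. For NEK2 the difference was 0.087 ± 0.17 (adjusted p = 0.745, 95% interval −0.27 to 0.45) and for CDK1 −0.42 ± 0.27 (adjusted p = 0.268, 95% interval −0.99 to 0.16). Neither passed, and the CDK1 interval is wide.

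**Figure D4:**
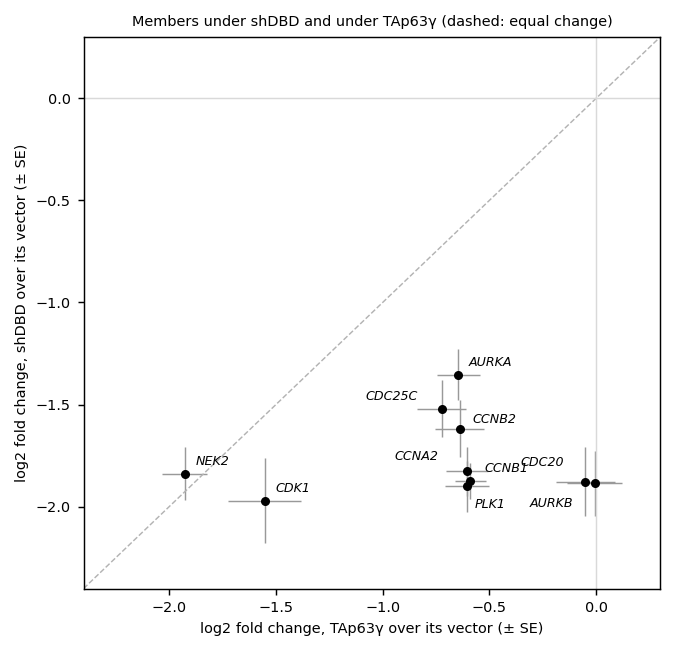
Log2 fold change of each member with TAp63γ (horizontal axis) and with shDBD (vertical axis), each over its own vector, with SE bars and a dashed line of equal change. The shDBD changes span −1.97 to −1.35, and the TAp63γ changes span −1.93 to −0.007, with NEK2 and CDK1 nearest to the line and AURKB and CDC20 farthest from it.

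Of the 10 genes, 5 had more than 1 probe set. The other CDK1 probe sets fell with shDBD (−1.56 ± 0.17 and −1.64 ± 0.18) and with TAp63γ (−1.41 ± 0.14 and −1.37 ± 0.15). The other NEK2 probe set followed the one used (−1.58 ± 0.10 with shDBD and −1.72 ± 0.082 with TAp63γ). AURKA was less uniform. Its second probe set fell with shDBD (−1.37 ± 0.19) and, as given above, did not pass with TAp63γ, and the remaining one, at levels of 5.07 to 6.41 over all arrays, did not pass in any of the 6 comparisons. One CDC25C probe set, at 5.32 to 6.69, likewise passed in none, while the remaining one fell with shDBD (−1.18 ± 0.10) and TAp63γ (−0.76 ± 0.079). When the probe sets of a gene were averaged, the AURKA change with TAp63γ was −0.32 (adjusted p = 0.0107) and the CDC25C change with shDBD was −0.95 (adjusted p = 7.75e-07). No probe set of a member passed in the direction opposite to the one used.

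The wider machinery was followed in 5 lists of other genes, which were also chosen with earlier results of these data known. Of 15 measured partners of the Aurora kinases, PLK1 and NEK2, 11 fell and 1 rose with shDBD (median −1.33). The checkpoint kinase TTK (−2.41 ± 0.25) and the kinetochore protein NDC80 (−2.08 ± 0.11) fell, while NEK9, the kinase that activates NEK6 and NEK7, did not pass (0.05 ± 0.089, adjusted p = 0.79). Of 17 genes of the anaphase-promoting complex, its regulators and targets, 11 fell and 2 rose (median −0.67), with the checkpoint protein BUB1B (−1.98 ± 0.12) and the ubiquitin-conjugating enzyme UBE2C (−1.77 ± 0.12) among those that fell and the core subunit ANAPC5 not passing (0.10 ± 0.10). Of 17 regulators of CDK1, 10 fell and 3 rose (median −0.29), and among those that fell were the phosphatase CDKN3 (−1.79 ± 0.14) and the CDK-binding subunit CKS1B (−1.38 ± 0.13).

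Of 17 factors that bind cell cycle promoters, 3 fell and 3 rose with shDBD (median −0.11). The activators FOXM1 (−1.99 ± 0.16) and MYBL2 (−1.54 ± 0.12) fell, and TFDP1, the partner of E2F proteins, did not pass (−0.021 ± 0.10, adjusted p = 0.937). Of 18 paralogs with other roles, 4 fell and 2 rose (median −0.06), among them CCNA1, a cyclin A known mainly from germ cells (−0.84 ± 0.13). The shares that fell, from 10 of 17 to 11 of 15 in the first 3 lists, stand against 10.2% of all genes, and those of the factors and paralogs are nearer to it. With shTA, 0 genes passed limma's test in each of the 5 lists, where 2.29% of all genes passed, so these counts too are near the background.

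With TAp63γ, where 22.8% of all genes passed lower and 20.5% higher, 10 of 15 Aurora, PLK1 and NEK2 partners fell and 0 rose (median −0.50). NDC80 (−1.59 ± 0.089) and TTK (−1.54 ± 0.20) fell, while KIF20A, a kinesin of cytokinesis, did not pass (0.13 ± 0.11, adjusted p = 0.374). Of the CDK1 regulators 10 fell and 4 rose. CDKN1A, the inhibitor p21, rose (1.60 ± 0.13), and CDKN3 fell (−1.58 ± 0.11). Of the anaphase-promoting complex list 9 fell and 1 rose. The 1 that rose was PTTG1, securin, the inhibitor of sister chromatid separation that CDC20 marks for destruction (1.18 ± 0.071), and it was lower with shDBD than with shTA (−1.60 ± 0.087). Of the promoter-binding factors 6 fell and 3 rose, with the DREAM subunit LIN37 higher (1.25 ± 0.15) and the NF-Y subunit NFYB lower (−1.04 ± 0.11). Of the paralogs 9 rose and 4 fell, with the stress-responsive PLK2 (2.14 ± 0.10) and the G1 cyclin CCND2 (1.13 ± 0.095) among those that rose, so that PLK2 and PLK1 changed in opposite directions. The 4 of 17 CDK1 regulators and 3 of 17 factors that rose, and the 4 of 18 paralogs that fell, are shares near those of all genes.

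With ΔNp63α, 6 of the 15 partners rose and 1 fell, among them the checkpoint kinases BUB1 (0.88 ± 0.078) and TTK (0.87 ± 0.20), while TPX2, the activator of AURKA, did not pass (0.019 ± 0.15). In the anaphase-promoting complex list 5 rose and 4 fell, and in the CDK1 regulator list 4 rose and 4 fell. Among those that rose were GMNN, an inhibitor of replication licensing (0.83 ± 0.088), and PTTG1 (0.64 ± 0.071), which thus rose with both isoforms. Of the factors 2 rose and 5 fell, and of the paralogs 7 rose and 2 fell, with the S phase cyclin CCNE2 at 1.58 ± 0.26. Between ΔNp63α and TAp63γ, 11 of the 15 partners passed higher (median 0.68), where 19.2% of all genes did. Against the 12.3% and 16.6% of all genes that passed higher and lower, the counts for the members and these lists were mixed.

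**Figure D5:**
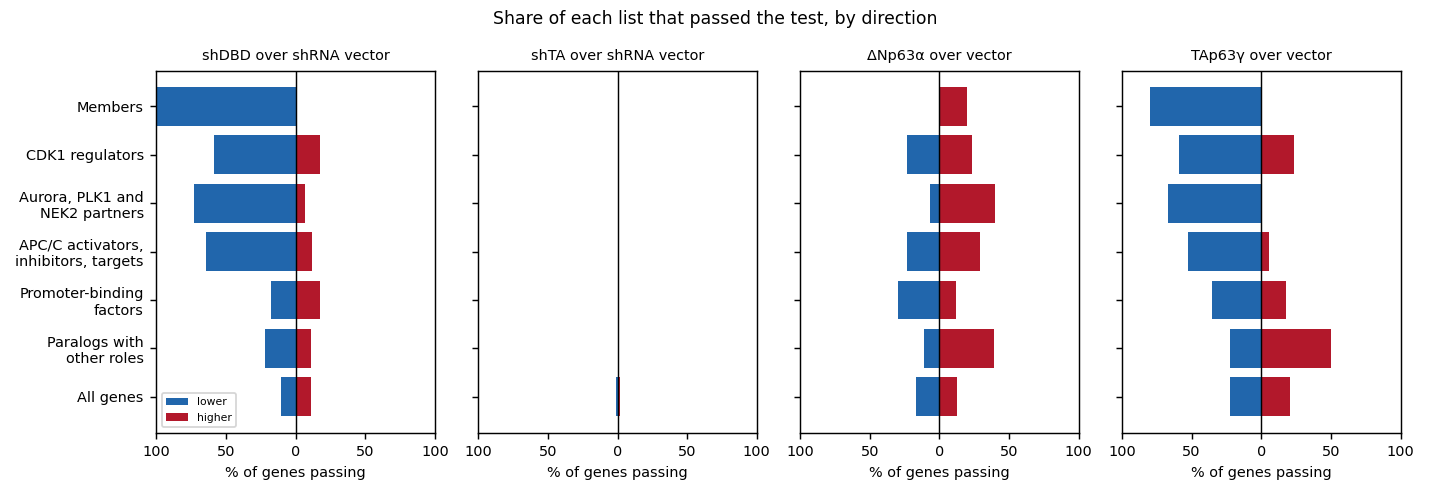
Percent of the genes of each list that passed the test lower (blue, left) or higher (red, right) in the 4 comparisons with a vector, with all genes at the bottom. The members pass lower in 10 of 10 with shDBD and 8 of 10 with TAp63γ, and no list has a gene that passes with shTA.

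The genes whose pattern was most like that of the members were found by correlating each gene with the mean of the 10 over the 15 arrays, each array taken relative to the vector mean of its arm. The 5 highest among genes outside the list were PIMREG, a regulator of the metaphase to anaphase transition (r = 0.980), the chromosome kinesin KIF4A (0.979), the passenger protein BIRC5 (0.978), UBE2C (0.9748) and the condensin subunit NCAPD2 (0.974). The arrays share treatments, so these values are a description, and large differences between groups dominate them. Within the list AURKA correlated at 0.988 with the mean that contains it, and CDC20 at 0.85, NEK2 at 0.860 and AURKB at 0.868 were lowest. BIRC5 and UBE2C also belong to the lists above. BIRC5, a partner of AURKB, had a change of −1.83 ± 0.12 with shDBD and −0.50 ± 0.10 with TAp63γ (adjusted p = 5.10e-04), so it passed with TAp63γ where AURKB did not.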

How the data were processed

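The authors deposited log2 expression values per probe set; the submitters' processing notes name RMA, and the sources used here give neither its version and settings nor whether the arms were run jointly. Of 22277 probe sets, 62 controls were left out and 19064 had 1 gene symbol in the platform annotation. The probe set of highest mean stood for its gene, which gave 11963 genes. Groups came from the sample titles. A limma model (version 3.58.1, R 4.3.3) with 1 mean for each of the 6 groups was fitted to the 15 arrays with 9 residual and 5.87 prior degrees of freedom and a variance trend. Tests were two-sided, and p-values were adjusted by Benjamini-Hochberg within each of 6 comparisons, with 0.05 as the threshold. The fit was tested on simulated data. RMA equalizes the arrays, so a shift of most transcripts would not be seen. The members and lists were chosen with earlier results of these data known. From each list the text could name up to 2 genes per comparison with the largest change among those that passed without overlap, and the uncalled gene with the highest level. Marker lists covered basal, epithelial, luminal receptor, immune, fibroblast, and endothelial and adipocyte genes. The 25 alternatives changed the variance model, the arms fitted, a replicate block, low levels, normalization, the probe set, and left out each array. The p63 transcript itself was not analysed here and gives no check of the labels.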

Additional observations from a re-analysis of the deposited data

How the results depend on the processing

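Counts of members that passed were 10 with shDBD over its vector, 0 with shTA, 10 with shDBD over shTA, 8 with TAp63γ and 8 for ΔNp63α over TAp63γ under all 25 alternatives, and 8 for the difference of the shDBD and TAp63γ effects under the 24 that could be run (it needs both arms in 1 fit). With ΔNp63α over its vector the count of 2 became 1 with the arms fitted separately, with the replicate block, with floored values and with the most variable probe set, and ranged from 1 to 3 leaving out 1 array. Of single values of members, 15 lost the call (CDK1 with ΔNp63α), 4 gained it (CCNB2 with ΔNp63α), 31 that were uncalled changed sign and 1690 kept direction and side. Among other named genes 37 values lost and 16 gained a call, and none that was called reversed. With the arms fitted separately, 1064 genes passed with shTA against 274, and 3359 for shDBD over shTA against 2197. The replicate block gave 150 with shTA. Leaving out 1 array, all genes passing ranged from 1650 to 2968 with shDBD (1650 without shRNA vector replicate 1) and from 87 to 472 with shTA. Those with shTA were 90 and 95 without shRNA vector replicates 1 and 2, 131 and 87 without shTA replicates 1 and 2, and 472 without ΔNp63α replicate 3. For shDBD over shTA they ranged from 1348 to 2588, with 1348 without shDBD replicate 1 and 1463 without shTA replicate 2. Floored values gave 3514 higher and 2503 lower for ΔNp63α over TAp63γ, against 2297 and 2465. Deviations of arrays with the same replicate number correlated at 0.0014 to 0.069 in the knockdown arm and −0.63 to 0.48 in the overexpression arm, so the numbers were not taken as pairs, and the replicate block changed no other count of members. With 2 arrays per group the error comes more from the other groups of the model than from the groups compared.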

Other observations

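Averaged over the 10 genes and taken relative to the vector mean of the arm, the level was −1.69 and −1.85 on the shDBD arrays and −0.03 and 0.06 on the shTA arrays. In the overexpression arm it was 0.16, 0.23 and 0.0031 on the ΔNp63α arrays and −0.80, −0.73 and −0.67 on the TAp63γ arrays. The ΔNp63α array with the value nearest to 0 was replicate 3.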
